A study of Homo sapiens with 414 samples.

Results

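KLK3-high and KLK3-low cells are the upper and lower part of the control arm of a single-cell RNA sequencing experiment on LNCaP, split by how much KLK3 mRNA each cell held. LNCaP is an androgen-responsive epithelial line established from a human prostate carcinoma. The classes were chosen by the measured KLK3 level: within each batch, a control cell was KLK3-high when its KLK3 reads per 1000000 reads in genes (CPM) lay above the median of that batch, and KLK3-low when they lay at or below it. Cells in which over 20% of the reads came from mitochondrially named genes were left out first, which took 35 of 209 control cells. The 174 cells that were kept made up 86 KLK3-high cells (27, 29 and 30 in batches 1, 2 and 3) and 88 KLK3-low cells (28, 29 and 31), out of 401 single cells of the series whose columns were matched to the labels.

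The groups used are KLK3-high control cells, KLK3-low control cells, and the same division of the SULT2B1 knockdown arm. Control cells had received a non-targeting siRNA, and knockdown cells an siRNA against SULT2B1, the gene of a sterol sulfotransferase, 48 h before they were harvested and captured singly on a microfluidic chip. All cells are thus transfected cells of 1 line. Reads were summed over the cells of a class and batch, so that the batch is the replicate (n = 3 libraries per class). The labels do not say that the batches were separate cultures, so p-values measure how these batches vary, which may be technical variation only.

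KLK3 encodes prostate-specific antigen, a secreted serine protease of the kallikrein family that luminal cells of the prostate release into seminal fluid. Its transcription is switched on by androgen through response elements near the gene, together with factors such as FOXA1 and HOXB13. KLK3 is therefore used as a readout of the androgen response, and KLK2, the neighbouring kallikrein gene, is regulated in the same way. LNCaP cells are known to differ from cell to cell in how much prostate-specific antigen they make.

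The stretches just before the start sites of KLK3 and KLK2 are shown because KLK3 defined the classes and KLK2 is its closest relative among the genes measured. They are 250 bases each from RefSeq on GRCh38.p14, plus strand, at chr19:50854665-50854914 and chr19:50873189-50873438, with the letters AGAACA, which begins the androgen response element described for the KLK3 promoter, in capitals.
KLK3: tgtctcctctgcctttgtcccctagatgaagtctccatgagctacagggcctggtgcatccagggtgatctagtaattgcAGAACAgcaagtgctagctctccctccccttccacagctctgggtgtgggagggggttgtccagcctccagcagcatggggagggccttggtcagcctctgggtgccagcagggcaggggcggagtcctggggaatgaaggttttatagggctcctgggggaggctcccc
KLK2: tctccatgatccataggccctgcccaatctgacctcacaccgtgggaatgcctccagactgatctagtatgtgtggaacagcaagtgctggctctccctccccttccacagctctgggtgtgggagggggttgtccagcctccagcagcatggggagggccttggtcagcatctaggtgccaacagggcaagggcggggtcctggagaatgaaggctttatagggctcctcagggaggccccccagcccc
AGAACA stood once in the KLK3 stretch, with its first base 170 bases before the start site. Neither it nor its reverse complement TGTTCT stood in the KLK2 stretch. KLK2 instead held ggaaca, with g in place of the first a, before the same letters gcaagtgct. Only the exact word was searched, so its absence does not show that the KLK2 stretch lacks an androgen response element. Of the 35116 stretches of the same length in the table, 12.4% held AGAACA or TGTTCT. The pair was identical at 205 of 259 aligned positions (79.2%) and shared an unbroken run of 80 bases. Their transcripts are much less alike: of 6910 distinct words of 50 bases in the annotated KLK2 transcripts, 11 (0.159%) also stood in a KLK3 transcript. The read length is not given in the sources used here, so how many reads could be shared by the pair was not tested.

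KLK3 itself was spread widely over control cells, and this spread is what the classes divide. In KLK3-high cells it reached from 530 to 4033 CPM in batch 1 (median 991), from 339 to 3328 CPM in batch 2 (median 1077) and from 778 to 5916 CPM in batch 3 (median 1370). In KLK3-low cells it reached from 0 to 335 CPM in batch 1 (median 46.6), from 1.01 to 332 CPM in batch 2 (median 55.3) and from 0 to 688 CPM in batch 3 (median 191). Batch 3 thus had the higher dividing line, and its KLK3-low cells held more KLK3 than those of the other batches.

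The values nearest the line were 530 CPM in KLK3-high and 335 CPM in KLK3-low cells of batch 1, 339 CPM in KLK3-high and 332 CPM in KLK3-low cells of batch 2, and 778 CPM in KLK3-high and 688 CPM in KLK3-low cells of batch 3. Summed over cells, KLK3 stood at 1425, 1188 and 1749 CPM in KLK3-high libraries and 101, 103 and 238 CPM in KLK3-low libraries, which is 14.2, 11.6 and 7.34 times as much in batches 1, 2 and 3. The low class mixes cells nearly without KLK3 and cells just under the line: 11 of 28, 9 of 29 and 8 of 31 KLK3-low cells had under 10 CPM, and 1, 0 and 2 of them had no KLK3 read at all. No single cell gave over 13.1% of the KLK3 reads of its library. These values describe the choice and were not tested.

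**Figure D1:**
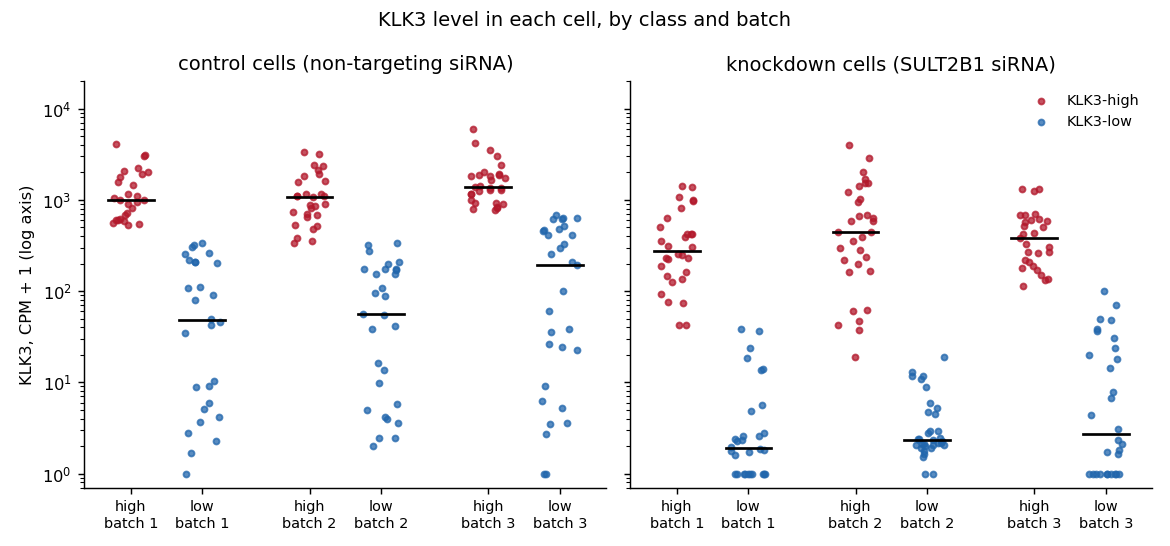
KLK3 level of each cell (CPM + 1 on a log axis, 1 point per cell, black bar at the median) in KLK3-high and KLK3-low cells of each batch, for control cells on the left and knockdown cells on the right. The control medians were 991, 1077 and 1370 CPM in KLK3-high cells and 46.6, 55.3 and 191 CPM in KLK3-low cells, and in knockdown cells the dividing line lay far lower, at 39.4, 17.8 and 99.4 CPM.

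Depth overlapped between the classes. Control cells held between 193281 and 2353816 reads in genes each, and the median cell had 1150830, 1128670 and 1239240 reads in KLK3-high cells against 1138210, 1142540 and 1101820 reads in KLK3-low cells of batches 1, 2 and 3 (exact permutation test, two-sided, p = 0.4, where 0.1 is the smallest p possible; 0.75 within batches, where 0.25 is the smallest). Genes detected in the median cell numbered 8833 ± 216 in KLK3-high cells and 8901 ± 198 in KLK3-low cells (mean ± SD over 3 batches; exact p = 0.8), and mitochondrial reads made up 5.83% ± 0.0916 of the median KLK3-high cell and 6.06% ± 0.412 of the median KLK3-low cell (exact p = 0.4). Both classes carried the epithelial and prostate genes that the label calls for: the 10 luminal epithelial markers, with most reads from CDH1, summed to 498 to 592 CPM in KLK3-high libraries and 526 to 582 CPM in KLK3-low libraries. Among 8 basal markers in the table, 6 stood under 1 CPM over the control cells. The counts are reads without molecular identifiers, so limits on shares of cells cover counting error only.

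SULT2B1, the target of the siRNA, was found in more KLK3-high than KLK3-low control cells. At least 1 read was present in 8 of 27, 9 of 29 and 12 of 30 KLK3-high cells, against 6 of 28, 5 of 29 and 2 of 31 KLK3-low cells of batches 1, 2 and 3. The shares averaged 33.6% ± 5.63 in KLK3-high cells and 15.0% ± 7.73 in KLK3-low cells (SD, n = 3 each; exact permutation test, two-sided, p = 0.1, and p = 0.25 within batches, the smallest values these designs allow), and the batches of the classes did not overlap. After each cell was thinned to 100000 reads the shares averaged 17.0% in KLK3-high cells and 9.29% in KLK3-low cells, but batch 1 then stood the other way round, at 3.70% in KLK3-high cells and 14.3% in KLK3-low cells.

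The SULT2B1 reads were few, 51, 73 and 277 in KLK3-high libraries against 96, 36 and 55 in KLK3-low libraries, so batch 1 was lower in the KLK3-high class by reads, and the gene did not pass the filter for the test across genes. In knockdown cells, which serve as the background, SULT2B1 reads were found in 0 of 30, 1 of 32 and 0 of 29 KLK3-high cells and in 2 of 30, 1 of 33 and 0 of 30 KLK3-low cells. A count of 0 of 30 cells allows a share of up to 10%, and 0 of 29 a share of up to 10.3%.

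With KLK3 left out, no gene passed the test across genes between KLK3-high and KLK3-low control cells. Of 16835 genes tested by edgeR's quasi-likelihood test with batch as a block, 0 (0%) had an adjusted p under 0.05, and the smallest adjusted p was 0.9997. At an unadjusted p under 0.05 stood 769 genes, 369 (2.19%) higher and 400 (2.38%) lower in KLK3-high cells. DESeq2, run on the same libraries as an alternative, placed 122 genes (0.725%) higher and 75 (0.446%) lower at an adjusted p under 0.05, and limma on the mean log2 level per cell placed 0, with 781 at an unadjusted p under 0.05. The values that follow are therefore differences that did not pass the main test, and edgeR p-values are unadjusted wherever none is called adjusted.

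A weaker measure is whether a gene stood on the same side in all 3 batches. In control cells 2244 genes (13.3%) were higher in KLK3-high cells in each batch and 2259 (13.4%) were lower in each. The median log2 fold change over all genes tested was -0.0079.

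Among the kallikreins tested, KLK2 leaned with KLK3. It had 154, 117 and 120 CPM in KLK3-high libraries of batches 1, 2 and 3, against 82.9, 83.3 and 101 CPM in KLK3-low libraries. Each KLK3-high library thus lay above every KLK3-low one, with a log2 fold change of 0.55 ± 0.18 (SE; edgeR p = 0.0298, adjusted p 0.9997 or more; DESeq2 adjusted p = 0.233). The difference was in level and hardly in presence, since at least 1 KLK2 read was found in 93.1% ± 3.33 of KLK3-high cells and 89.7% ± 3.73 of KLK3-low cells (SD, n = 3 each; exact p = 0.4). KLK2 lies on chromosome 19 from 50861568 to 50880567, plus strand, next to KLK3 at 50854915 to 50860764 (GENCODE 29, GRCh38).

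The other kallikreins tested did not lean with the class. KLK4, a protease of enamel and prostate, had 21.2, 11.4 and 10.8 CPM in KLK3-high libraries and 17.0, 15.1 and 23.1 CPM in KLK3-low libraries (log2 fold change -0.40 ± 0.41, p = 0.380). The pseudogene KLKP1 had 28.6, 18.1 and 41.3 CPM in KLK3-high and 27.5, 42.9 and 21.2 CPM in KLK3-low libraries (-0.07 ± 0.50), and KLK15 stayed under 6 CPM throughout (-0.05 ± 1.33). The classes overlapped for all 3, and the direction of KLKP1 and KLK15 turned when batch 2 was left out, that of KLK15 also without batch 1. KLK1, KLK10 and KLK11 were too low to be tested.

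Androgen response genes other than kallikreins leaned upward in KLK3-high control cells. Of 67 tested, 9 were higher (background 2.19%) and 1 was lower (background 2.38%) at an unadjusted p under 0.05. In all 3 batches 16 were higher and 4 lower (background 13.3% and 13.4%), and the median log2 fold change was 0.14. Without batch 1 the count of higher genes was 5 of 67. The list was drawn up with earlier results of these data known, and its members include genes of unrelated functions.

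TMPRSS2, a cell-surface serine protease whose promoter is fused to ERG in many prostate cancers, had 287, 127 and 246 CPM in KLK3-high libraries, against 115, 70.3 and 134 CPM in KLK3-low libraries. It was higher in each batch, with a log2 fold change of 1.02 ± 0.15 (p = 0.00127; DESeq2 adjusted p = 3.64e-05). ELOVL5, an elongase of polyunsaturated fatty acids, had 1072, 723 and 754 CPM in KLK3-high libraries and 723, 595 and 418 CPM in KLK3-low libraries (0.57 ± 0.13, p = 0.00786; DESeq2 adjusted p = 0.0128). ABCC4, a membrane exporter of organic anions, had 353, 270 and 430 CPM in KLK3-high libraries and 242, 202 and 236 CPM in KLK3-low libraries (0.61 ± 0.12, p = 0.00517; DESeq2 adjusted p = 0.0138). For ABCC4 the classes did not overlap, whereas for TMPRSS2 and ELOVL5 they overlapped across batches and every pair within a batch was apart.

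PMEPA1, an inhibitor of TGF-beta signalling, had 45.1, 42.6 and 43.1 CPM in KLK3-high libraries and 26.0, 10.2 and 20.3 CPM in KLK3-low libraries (1.31 ± 0.35, p = 0.0147). UAP1, which makes the sugar donor for protein glycosylation, had 348, 261 and 188 CPM in KLK3-high libraries and 265, 180 and 129 CPM in KLK3-low libraries (0.49 ± 0.10, p = 0.00462). The remaining higher members below 0.05 were the ETS factor ELK4 (0.51 ± 0.17), the small GTPase RAB4A (0.53 ± 0.20), the kinase CDK6 (1.24 ± 0.41) and the scaffold AKAP12, in which 1 cell held 27.6% of all reads. The lower member was SPDEF, an epithelial ETS factor, with 14.5, 25.5 and 14.6 CPM in KLK3-high libraries and 27.8, 43.5 and 20.2 CPM in KLK3-low libraries (-0.72 ± 0.28, p = 0.0489).

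Other androgen response genes leaned little, unevenly or downward. STEAP2, a membrane metalloreductase, had 2912, 3013 and 4438 CPM in KLK3-high libraries and 3139, 3006 and 3943 CPM in KLK3-low libraries, and its log2 fold change was 0.02 ± 0.07. FKBP5, a co-chaperone of steroid receptors, had 122, 74.4 and 55.8 CPM in KLK3-high libraries and 65.9, 94.7 and 24.9 CPM in KLK3-low libraries, so that batch 2 went against the others (0.57 ± 0.35, p = 0.165). XRCC5, a DNA end-binding protein, was lower in each batch (-0.18 ± 0.08, p = 0.0668), and B2M, the light chain of HLA class I, gave -0.10 ± 0.09.

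The transcription factor FOXA1 was lower and ETV1 higher in KLK3-high cells of each batch. FOXA1, a pioneer factor that opens chromatin at androgen-responsive enhancers, had 202, 158 and 306 CPM in KLK3-high libraries and 296, 226 and 329 CPM in KLK3-low libraries (log2 fold change -0.39 ± 0.13, p = 0.0324; DESeq2 adjusted p = 0.329). ETV1, an ETS factor, had 295, 202 and 222 CPM in KLK3-high libraries and 278, 149 and 154 CPM in KLK3-low libraries (0.35 ± 0.13, p = 0.0439). In both genes the ranges of the classes overlapped across batches.

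**Figure D2:**
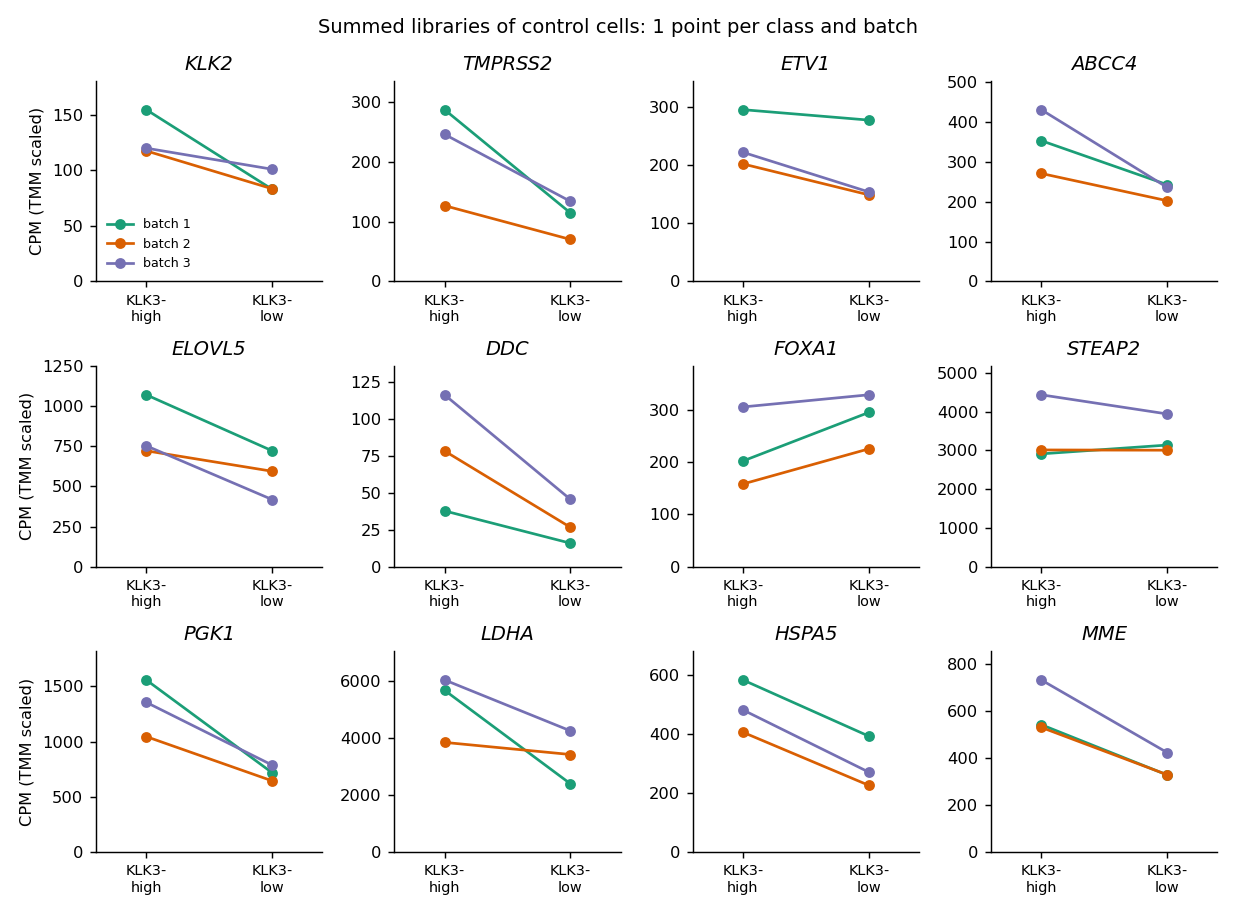
Levels (CPM, scaled by the TMM method) of 12 genes in the summed libraries of KLK3-high and KLK3-low control cells, 1 line per batch. TMPRSS2, ABCC4, ETV1, DDC, PGK1, HSPA5 and MME were higher in KLK3-high cells of every batch, FOXA1 was lower in every batch, and STEAP2 had a log2 fold change of 0.02 ± 0.07.

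The genes with the smallest p that were higher in KLK3-high control cells were led by MME and FAM234B. Since none passed the adjusted threshold, the 12 places for each direction went to the smallest unadjusted p among genes that kept 1 direction in all batches, averaged at least 5 CPM and drew under 20% of their reads from any 1 cell, conditions that 1349 higher and 1389 lower genes met. MME, the cell-surface peptidase neprilysin, came first, with 542, 530 and 732 CPM in KLK3-high libraries against 327, 328 and 423 CPM in KLK3-low libraries (log2 fold change 0.74 ± 0.08, p = 0.000292; DESeq2 adjusted p = 2.43e-05). FAM234B had 338, 376 and 311 CPM in KLK3-high libraries and 195, 218 and 169 CPM in KLK3-low libraries (0.82 ± 0.09, p = 0.000344). For both, every KLK3-high library lay above every KLK3-low library.

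KLHL1, a Kelch-like protein, had the largest fold change of the 12, with 244, 226 and 157 CPM in KLK3-high libraries and 61.9, 74.3 and 77.1 CPM in KLK3-low libraries (1.54 ± 0.22, p = 0.00119). MALT1, the paracaspase of NF-kB signalling, had 194, 102 and 200 CPM in KLK3-high libraries and 55.4, 51.4 and 65.6 CPM in KLK3-low libraries (1.47 ± 0.21, p = 0.00111). DDC, the decarboxylase that makes dopamine and serotonin, had 37.8, 78.4 and 116.4 CPM in KLK3-high libraries and 15.9, 26.6 and 45.5 CPM in KLK3-low libraries (1.39 ± 0.19, p = 0.000932). With each cell given equal weight the DDC difference was 0.31 (limma p = 0.383). DDC reads were found in 40.2% ± 15.6 of KLK3-high and 40.8% ± 3.84 of KLK3-low cells (SD, n = 3 batches each). GDF15, a secreted cytokine of the TGF-beta family, had 151, 69.3 and 210 CPM in KLK3-high libraries and 53.4, 27.8 and 113 CPM in KLK3-low libraries (1.24 ± 0.18, p = 0.00120). That the KLK3-high library of each batch stood above its KLK3-low partner for KLHL1, MALT1, DDC and GDF15 follows from the rule. DESeq2, run on the same libraries, gave these 4 genes adjusted p-values from 6.12e-08 to 4.37e-05.

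The other genes of the 12 had smaller folds. They were the glycolytic enzyme PGK1 (0.87 ± 0.11), the chaperone HSPA5 (0.75 ± 0.10), C4orf3 (0.73 ± 0.10), the adhesion molecule NCAM2 (0.53 ± 0.07), the mitophagy receptor BNIP3L (0.53 ± 0.08) and the desaturase SCD (0.49 ± 0.07). NCAM2, for example, had 831, 669 and 964 CPM in KLK3-high libraries and 584, 461 and 667 CPM in KLK3-low libraries. Every batch of these 6 genes was higher in the KLK3-high class, as the rule that chose them required.

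The 12 genes with the smallest p that were lower in KLK3-high control cells were chosen in the same way. TFPI, the inhibitor of tissue factor coagulation, drew the most reads of the 12, with 1024, 809 and 1059 CPM in KLK3-high libraries against 1350, 1312 and 1545 CPM in KLK3-low libraries (log2 fold change -0.55 ± 0.08, p = 0.00152; DESeq2 adjusted p = 0.00337). MAP1B, a microtubule-associated protein, had 569, 402 and 392 CPM in KLK3-high libraries and 783, 873 and 892 CPM in KLK3-low libraries (-0.92 ± 0.17, p = 0.00334; DESeq2 adjusted p = 3.33e-05). In both genes the classes did not overlap.

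ENPP4, a cell-surface nucleotide phosphodiesterase, had 21.2, 12.2 and 19.9 CPM in KLK3-high libraries and 53.8, 30.5 and 74.8 CPM in KLK3-low libraries, the largest fold of the 12 (-1.52 ± 0.26, p = 0.00235). PPP2R5A, a regulatory subunit of protein phosphatase 2A, had 43.9, 32.8 and 27.2 CPM in KLK3-high libraries and 106, 79.2 and 48.1 CPM in KLK3-low libraries (-1.12 ± 0.20, p = 0.00295). RFK, the riboflavin kinase, had 39.3, 35.4 and 34.3 CPM in KLK3-high libraries and 85.3, 72.0 and 62.0 CPM in KLK3-low libraries (-0.999 ± 0.187, p = 0.00340). The others given are ZNF595 (-1.36 ± 0.26), ABCF2 (-0.89 ± 0.16), QSER1 (-0.84 ± 0.16), the prostaglandin reductase PTGR1 (-0.79 ± 0.14), BLOC1S6 (-0.56 ± 0.10) and the nuclear import factor KPNA2 (-0.44 ± 0.08).

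**Figure D3:**
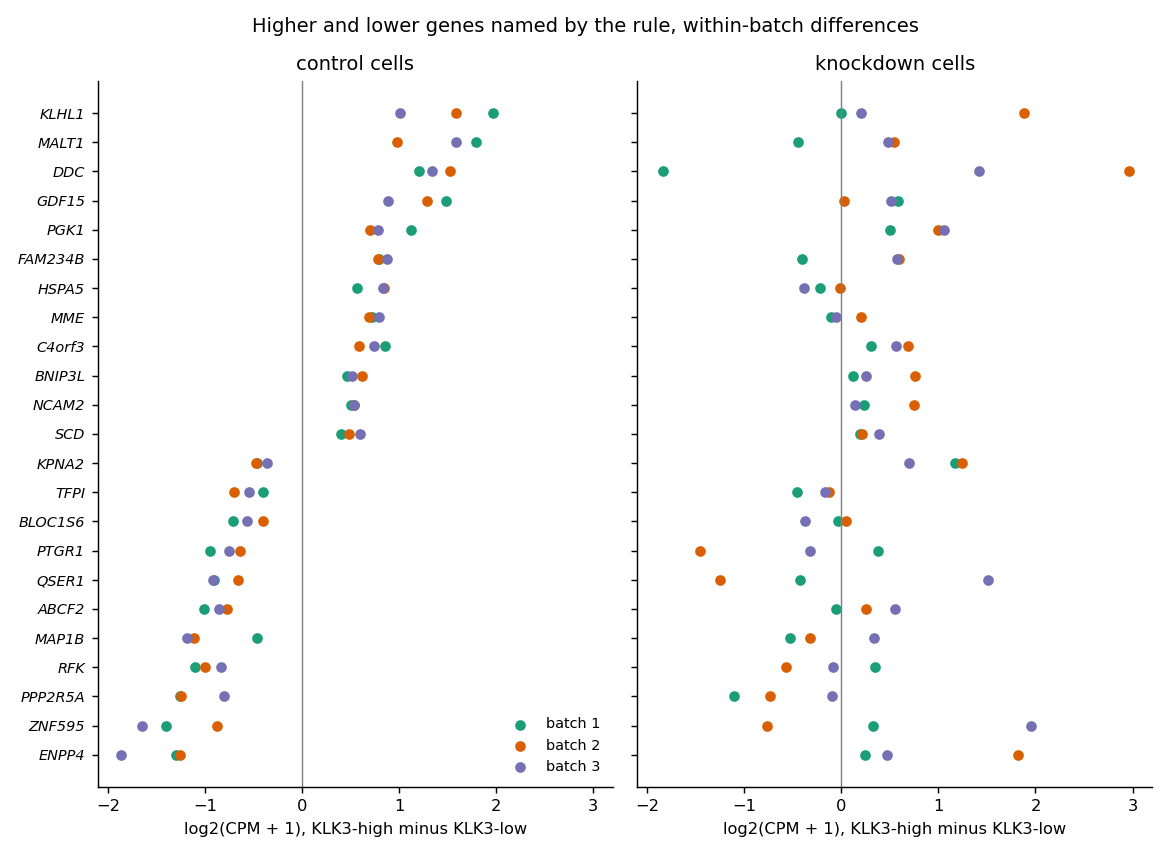
Within-batch difference of log2(CPM + 1), KLK3-high minus KLK3-low, for the 12 higher genes and 11 of the 12 lower genes chosen in control cells (left) and the same genes in knockdown cells (right), 1 point per batch. All 3 control batches lie on 1 side by the rule that chose the genes. In knockdown cells KPNA2, ENPP4 and HSPA5 lie on the opposite side in all 3 batches, and PGK1 and C4orf3 are among those on the same side.

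Glycolysis and hypoxia genes leaned upward in KLK3-high control cells. Of 23 tested, 10 were higher at an unadjusted p under 0.05 and 0 lower (background 2.19% and 2.38%). In all 3 batches 15 were higher and 0 lower (background 13.3% and 13.4%), and the median log2 fold change was 0.34. Taken batch by batch, the median member differed by 0.69, 0.17 and 0.35 on the log2(CPM + 1) scale. The count was 5 of 23 without batch 1, 4 without batch 3, and 5 with a mitochondrial limit of 10%.

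PGK1, phosphoglycerate kinase, had 1560, 1045 and 1356 CPM in KLK3-high libraries, against 717, 644 and 787 CPM in KLK3-low libraries (p = 0.000570; DESeq2 adjusted p = 4.52e-07). LDHA, which turns pyruvate into lactate, had 5678, 3846 and 6042 CPM in KLK3-high libraries and 2389, 3419 and 4251 CPM in KLK3-low libraries (0.64 ± 0.22, p = 0.0336). PGK1 separated the classes fully, while LDHA in the KLK3-high library of batch 2 lay below the KLK3-low library of batch 3. BNIP3, a hypoxia-induced mitophagy receptor, had 655, 366 and 768 CPM in KLK3-high libraries and 252, 285 and 483 CPM in KLK3-low libraries (0.80 ± 0.21, p = 0.0147), and PDK1, which holds pyruvate dehydrogenase inactive, had 518, 410 and 623 CPM in KLK3-high libraries and 242, 392 and 343 CPM in KLK3-low libraries (0.68 ± 0.22, p = 0.0305).

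The remaining members below 0.05 were BNIP3L, the isomerase GPI (0.46 ± 0.12), ENO1 (0.40 ± 0.13), the aldolase ALDOC (0.78 ± 0.27), PFKP (0.59 ± 0.21) and PKM (0.28 ± 0.10). GAPDH (0.23 ± 0.09, p = 0.0571) and TPI1 (0.34 ± 0.14, p = 0.0700) were higher in each batch and above 0.05. In batch 2 the gap was small for several enzymes: ENO1 had 2626 CPM in the KLK3-high library and 2518 CPM in the KLK3-low library of that batch, and TPI1 had 2204 CPM in the KLK3-high and 2195 CPM in the KLK3-low library. CA9 and ADM, hypoxia targets in other settings, were at or near 0 in control cells and not tested.

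Genes of protein folding and secretion in the endoplasmic reticulum leaned upward as well. Of 39 tested, 6 were higher and 0 lower at an unadjusted p under 0.05 (background 2.19% and 2.38%). In all 3 batches 17 were higher and 1 lower (background 13.3% and 13.4%), and the median was 0.20. HSPA5, the lumenal chaperone BiP, had 582, 405 and 480 CPM in KLK3-high libraries and 392, 225 and 270 CPM in KLK3-low libraries, with no overlap (p = 0.000857; DESeq2 adjusted p = 7.34e-05). HSP90B1, its partner chaperone GRP94, had 1566, 1185 and 1669 CPM in KLK3-high libraries and 1290, 947 and 1310 CPM in KLK3-low libraries (0.32 ± 0.06, p = 0.00382).

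DNAJC3, a co-chaperone, had 462, 399 and 497 CPM in KLK3-high libraries and 299, 322 and 239 CPM in KLK3-low libraries (0.66 ± 0.16, p = 0.0111). DNAJB11 (0.46 ± 0.15), the translocon subunit SEC61G (0.42 ± 0.12) and SSR4 (0.29 ± 0.10) were the other 3 below 0.05. The integrated stress response list had 0 of 16 members below 0.05 in either direction, with a median of 0.024. The count of folding genes was 3 of 39 without batch 1, and 11 when the cells between the upper and lower tertiles of KLK3 were left out.

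Fatty acid synthesis genes leaned upward and cholesterol synthesis genes did not. Of 16 fatty acid genes tested, 4 were higher and 0 lower at an unadjusted p under 0.05 (background 2.19% and 2.38%), with a median of 0.29. The 4 were ELOVL5, SCD, FADS1 and ACSL1. SCD, the desaturase that makes oleate, had 1118, 1858 and 1975 CPM in KLK3-high libraries and 844, 1330 and 1309 CPM in KLK3-low libraries (p = 0.000986; DESeq2 adjusted p = 0.00430). FADS1, a desaturase of polyunsaturated fatty acids, had 120, 113 and 119 CPM in KLK3-high libraries and 83.0, 74.5 and 85.6 CPM in KLK3-low libraries (0.54 ± 0.14, p = 0.0121), and the acyl-CoA ligase ACSL1 gave 0.41 ± 0.11. Without batch 2 the count was 2 higher and 1 lower, and the median was 0.10 in thinned cells and 0.079 without cells above the 75th percentile of G2 and M score. The mean score per cell of this list differed by 0.29, 0.35 and -0.081 in batches 1, 2 and 3.

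Of 24 cholesterol genes, 1 was higher and 0 lower (background 2.19% and 2.38%), with a median of -0.040. It was STARD4, a sterol carrier, at 73.0, 84.3 and 38.4 CPM in KLK3-high libraries and 28.6, 29.9 and 21.5 CPM in KLK3-low libraries (1.23 ± 0.24, p = 0.00417), where 1 cell held 18.0% of the reads. With each cell given equal weight its difference was 0.27 (limma p = 0.554). STARD4 reads were found in 53.9% ± 14.9 of KLK3-high and 53.2% ± 16.7 of KLK3-low cells (SD, n = 3 batches each). Of 18 steroid metabolism genes, UGT2B17, a glucuronosyltransferase that inactivates androgens, was the one below 0.05 (0.44 ± 0.16, p = 0.0415), but it stood at -0.24 when each cell was given equal weight. Its relative UGT2B15 had 74.8, 85.2 and 44.2 CPM in KLK3-high libraries and 147, 89.1 and 213 CPM in KLK3-low libraries (-1.10 ± 0.46, p = 0.0640). These close paralogs thus stood on opposite sides in the summed libraries only, and whether the counting shared reads between them was not tested.

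Genes of the G2 and M phases leaned downward in KLK3-high control cells, and S phase genes did so in batches 1 and 3. Of 55 genes of the G2 and M phases, 0 were higher and 11 lower at an unadjusted p under 0.05 (background 2.19% and 2.38%). In all 3 batches 0 were higher and 25 lower (background 13.3% and 13.4%), and the median was -0.31. Of 43 S phase genes, 0 were higher and 3 lower at an unadjusted p under 0.05, with a median of -0.26. Taken batch by batch, the median G2 and M gene differed by -0.30, -0.20 and -0.49 on the log2(CPM + 1) scale. The median S phase gene differed by -0.29, 0.022 and -0.48, with 23 genes higher and 20 lower in batch 2.

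CCNB1, the cyclin of mitotic entry, had 248, 550 and 168 CPM in KLK3-high libraries, against 473, 619 and 237 CPM in KLK3-low libraries (-0.53 ± 0.17, p = 0.0264). CDK1, its kinase, had 630, 499 and 410 CPM in KLK3-high libraries and 738, 1013 and 411 CPM in KLK3-low libraries (-0.42 ± 0.22, p = 0.116). Batch 2 held the most CCNB1 in both classes, so the classes overlapped across batches, and each pair within a batch was apart. KIF23, a kinesin of the midzone, had 60.2, 90.5 and 24.8 CPM in KLK3-high libraries and 138, 140 and 51.4 CPM in KLK3-low libraries (-0.96 ± 0.19, p = 0.00425; DESeq2 adjusted p = 0.00525).

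HMMR (-0.69 ± 0.18), ECT2 (-0.63 ± 0.13), CCNB2 (-0.56 ± 0.18), the survivin gene BIRC5 (-0.52 ± 0.13), CKS2 (-0.46 ± 0.13) and CENPF (-0.42 ± 0.15) were further members below 0.05. In the S phase list these were DTL (-0.78 ± 0.28), TYMS (-0.48 ± 0.17) and PCNA (-0.34 ± 0.12), while RRM2, a subunit of ribonucleotide reductase, gave 0.22 ± 0.26 with batch 1 higher and batches 2 and 3 lower. The G2 and M count depended on which cells entered: 1 of 55 was lower without the mitochondrial limit and 3 with a limit of 10%. It was also 3 without batch 3 and 1 without the replicate block, and DESeq2 placed 3 lower at an adjusted p under 0.05, namely KIF23, HMMR and ECT2. With cells above the 75th percentile of G2 and M score left out, 1 was lower and 1 higher, and CCNB1, CCNB2 and CENPF turned to 0.14, 0.15 and 0.36. That score is made from these same genes, so the choice of cells in part sets this result. The S phase count of 3 lower genes was 0 without batch 1, 5 without batch 2, 1 without batch 3, 1 in cells thinned to 1 depth and 0 without the mitochondrial limit.

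The same division of the knockdown arm asks whether these leans recur in cells the rule for control cells did not use. The knockdown arm had 91 KLK3-high and 93 KLK3-low cells, but its KLK3 levels were lower: the median was 276, 442 and 383 CPM in KLK3-high cells and 0.922, 1.33 and 1.73 CPM in KLK3-low cells of batches 1, 2 and 3. These KLK3-high medians lay near or below the dividing lines of the control arm, which were 335, 336 and 688 CPM, and 10, 2 and 10 of the knockdown KLK3-low cells had no KLK3 read. Of 17600 genes tested in knockdown cells, 0 had an edgeR adjusted p under 0.05 (smallest 0.460), while DESeq2 placed 280 higher and 298 lower and limma placed 0. At an unadjusted p under 0.05 stood 568 (3.23%) higher and 563 (3.2%) lower, and 2545 (14.5%) were higher and 2606 (14.8%) lower in all 3 batches.

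KLK2 leaned the same way in knockdown cells, with a larger fold change. It had 83.4, 50.9 and 85.6 CPM in knockdown KLK3-high libraries, against 11.7, 23.7 and 15.5 CPM in knockdown KLK3-low libraries (log2 fold change 2.14 ± 0.42, p = 0.00473, adjusted p = 0.665). The interaction, control minus knockdown, was -1.60 on the log2 scale (p = 0.0121, adjusted p = 0.845). KLK2 reads were found in 77.0% ± 5.82 of knockdown KLK3-high cells and 57.2% ± 4.90 of knockdown KLK3-low cells (SD, n = 3 each; exact permutation test, two-sided, p = 0.1, the smallest possible).

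TMPRSS2 (0.85 ± 0.24), ABCC4 (1.15 ± 0.31), ELOVL5 (0.46 ± 0.10), UAP1 (0.48 ± 0.10) and ETV1 (0.78 ± 0.23) were also higher in knockdown KLK3-high cells of each batch, with p from 0.00481 to 0.0222. FOXA1 gave -0.03 ± 0.15. Over the androgen response list, 9 of 67 genes were higher and 4 lower at an unadjusted p under 0.05 (background 3.23% and 3.2%). The median was 0.20 and the within-batch medians were -0.038, 0.037 and 0.46, so that batch 3 held most of the lean. In every batch of both arms 7 of the 67 genes were higher, as were 405 of the 15849 genes tested in both arms.

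Glycolysis and hypoxia genes also stood higher in knockdown KLK3-high cells. At an unadjusted p under 0.05, 13 of 23 were higher and 0 lower (background 3.23% and 3.2%), and the median was 0.47. PGK1 had 829, 1424 and 1014 CPM in knockdown KLK3-high libraries and 587, 715 and 487 CPM in knockdown KLK3-low libraries (0.85 ± 0.14, p = 0.00199), close to the 0.87 ± 0.11 of control cells, and the interaction was 0.02 (p = 0.936). LDHA had 3752, 4983 and 4154 CPM in knockdown KLK3-high libraries and 2566, 2184 and 1878 CPM in knockdown KLK3-low libraries (0.96 ± 0.15, p = 0.00159). For both genes every knockdown KLK3-high library lay above every knockdown KLK3-low library. In 13 of 23 genes all 6 batches of the arms were higher in the KLK3-high class, against 405 of the 15849 genes tested in both arms.

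Genes of protein folding and secretion did not show the lean of control cells in the knockdown arm. Of 39 tested, 2 were higher and 0 lower at an unadjusted p under 0.05 (background 3.23% and 3.2%), with a median of 0.025. HSPA5 had 422, 364 and 345 CPM in knockdown KLK3-high libraries and 491, 368 and 452 CPM in knockdown KLK3-low libraries, lower in each batch (-0.21 ± 0.11, p = 0.125).

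Cell cycle genes, in contrast, stood on opposite sides in the arms. In knockdown cells 27 of 55 G2 and M genes were higher in the KLK3-high class and 0 lower at an unadjusted p under 0.05, with a median of 1.49. Likewise 15 of 43 S phase genes were higher and 0 lower, with a median of 0.74. The background was 3.23% higher and 3.2% lower. CCNB1 had 448, 213 and 259 CPM in knockdown KLK3-high libraries and 198, 80.0 and 130 CPM in knockdown KLK3-low libraries (1.20 ± 0.13, p = 0.000339). CDK1 had 425, 132 and 264 CPM in knockdown KLK3-high libraries and 169, 55.2 and 99.9 CPM in knockdown KLK3-low libraries (1.33 ± 0.11, p = 9.38e-05). Every knockdown batch was higher in the KLK3-high class for both genes. Without cells above the 75th percentile of G2 and M score, 1 of the 44 G2 and M genes then tested in knockdown cells was higher and 1 lower, with a median of 0.12. Here too the score is made from the genes that are counted, so the choice of cells in part sets the count.

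The difference between arms was tested by the interaction of class and arm, in which 1093 of 20140 genes (5.43%) had an unadjusted p under 0.05 and 0 an edgeR adjusted p under 0.05 (DESeq2 placed 341 and limma 0). Of the 55 G2 and M genes, 37 were below 0.05, all with the control difference under the knockdown one, and 22 were lower in all control batches and higher in all knockdown batches. The corresponding S phase counts were 22 and 10 of 43. Over all 15849 genes tested in both arms, 321 were lower in every control batch and higher in every knockdown batch. HMMR, a spindle protein, had the smallest interaction p among the genes named, -2.36 on the log2 scale (p = 2.27e-05, adjusted p = 0.270).

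**Figure D4:**
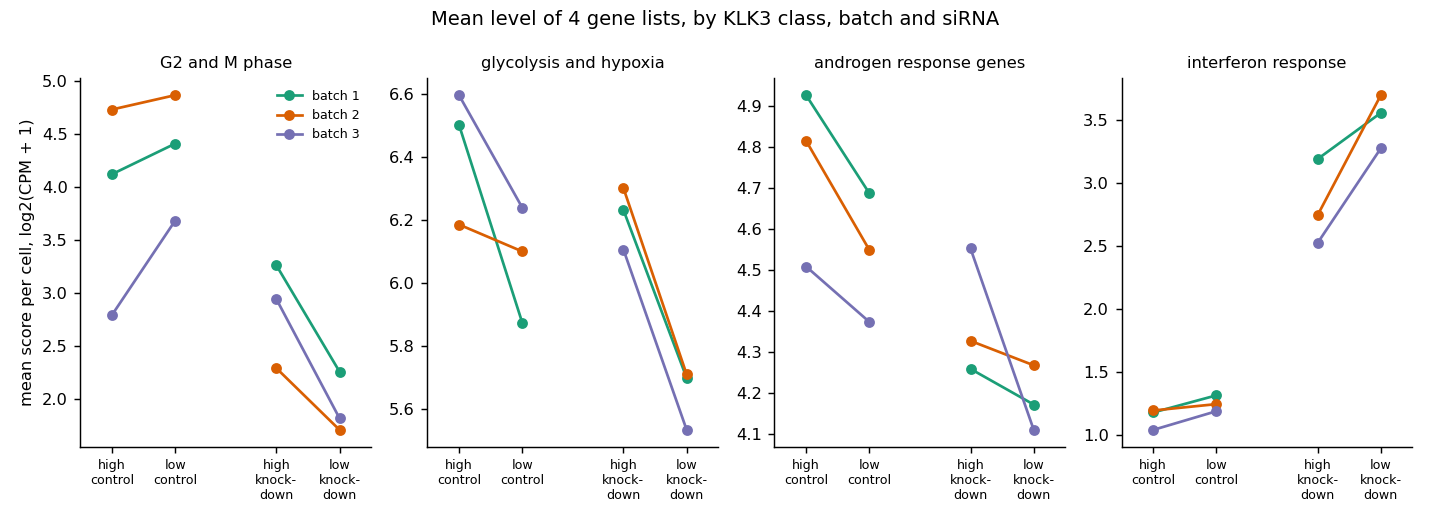
Mean over cells of the mean log2(CPM + 1) of 4 gene lists in KLK3-high and KLK3-low cells, 1 line per batch, with control cells on the left and knockdown cells on the right of each panel (the vertical axes do not start at 0). The G2 and M score was lower in KLK3-high control cells and higher in KLK3-high knockdown cells of every batch, whereas the glycolysis and hypoxia score was higher in KLK3-high cells of both arms.

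Interferon response genes were low in control cells, and few differed between the classes. Of 24 tested, 0 were higher and 1 lower at an unadjusted p under 0.05 (background 2.19% and 2.38%). Their median of -0.19 was -0.005 in thinned cells, -0.03 with a mitochondrial limit of 10% and -0.04 without batch 2. The 1 was IFIT2, an interferon-induced RNA-binding protein, at 2.01, 4.42 and 1.41 CPM in KLK3-high libraries and 14.2, 15.3 and 10.03 CPM in KLK3-low libraries (-2.48 ± 0.50, p = 0.00454; DESeq2 adjusted p = 0.0104), where 1 cell held 20.6% of the reads; with each cell given equal weight its log2 difference was -0.46 (limma p = 0.0507). In knockdown cells 17 of 32 were lower and 0 higher (background 3.2% and 3.23%), with a median of -1.20. The knockdown count was 10 without batch 2, 9 without batch 3, 7 with a mitochondrial limit of 10%, 5 with the outer tertiles and 6 without cells above the 75th percentile of G2 and M score, with 0 higher in each. IFIT2 there had 2281, 245 and 170 CPM in KLK3-high libraries and 2420, 3282 and 4113 CPM in KLK3-low libraries (-2.98 ± 1.09, p = 0.0439), so that batch 1 hardly differed while batches 2 and 3 did widely.

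Targets of p53 lay on the lower side in the KLK3-high class of both arms, but hardly so in batch 3 of control cells. Of 23 tested in control cells, 0 were higher and 2 lower at an unadjusted p under 0.05 (background 2.19% and 2.38%), with a median of -0.25. The 2 were DDB2 (-0.97 ± 0.25) and BTG2 (-0.86 ± 0.29). In all 3 batches 0 were higher and 7 lower (background 13.3% and 13.4%). Within batches the control medians were -0.25, -0.45 and -0.021 on the log2(CPM + 1) scale, and batch 3 had 11 higher and 12 lower. The count lower was 2 of 23 without batch 1, 1 of 23 without batch 2 and 0 of 22 without batch 3. In knockdown cells 9 were lower and 0 higher (background 3.2% and 3.23%), with a median of -0.59. There 3 were higher and 13 lower in all 3 batches (background 14.5% and 14.8%). MDM2, the ligase that degrades p53, had 338, 341 and 331 CPM in control KLK3-high libraries and 333, 718 and 411 CPM in control KLK3-low libraries (-0.45 ± 0.23, p = 0.108). Of 16 immediate early genes, 3 were higher and 1 lower in control cells at an unadjusted p under 0.05 (background 2.19% and 2.38%). MYC, the growth-promoting transcription factor, was among the higher ones with 82.1, 74.9 and 103 CPM in KLK3-high libraries and 69.2, 35.0 and 54.7 CPM in KLK3-low libraries (0.75 ± 0.23, p = 0.0253).

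Ribosomal protein genes and nuclear genes of the respiratory chain differed little in size of change. Of 74 ribosomal protein genes and 49 nuclear genes of the respiratory chain, 0 had an unadjusted p under 0.05 (background 2.19% higher and 2.38% lower). Their medians were 0.052 and -0.016. In all 3 batches 16 ribosomal protein genes were higher and 1 lower, and 6 respiratory chain genes were higher and 9 lower (background 13.3% and 13.4%). Of 13 mitochondrially encoded genes 2 were lower (background 2.38%), MT-CO3 (-0.17 ± 0.05) among them. Of 13 heat shock genes 2 were lower (background 2.38%), HSPA8 (-0.27 ± 0.07, p = 0.0130) and HSP90AA1 (-0.37 ± 0.10, p = 0.0170).

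Prostate secretion, polyamine and zinc genes belong to the functions of luminal cells. Of 12, 10 and 18 tested, 1, 1 and 0 were higher and 0, 0 and 1 lower (background 2.19% and 2.38%). They were GDF15, the polyamine enzyme AMD1 (0.33 ± 0.08, p = 0.0126) and, lower, the zinc transporter SLC30A7 (-0.45 ± 0.10, p = 0.00744). FOLH1, prostate-specific membrane antigen, had 748, 708 and 1029 CPM in KLK3-high libraries and 902, 853 and 1048 CPM in KLK3-low libraries (-0.19 ± 0.08, p = 0.0776). Among nuclear and prostate noncoding RNAs 3 of 13 were higher and 0 lower (background 2.19% and 2.38%). NEAT1, the RNA of paraspeckles, had 2070, 1348 and 2518 CPM in KLK3-high libraries and 1555, 691 and 1517 CPM in KLK3-low libraries (0.70 ± 0.12, p = 0.00246, DESeq2 adjusted p = 0.000149). The others were MALAT1 (0.31 ± 0.10) and SCHLAP1 (0.59 ± 0.20).

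Genes listed as repressed by androgen did not stand clearly lower with high KLK3 in control cells. Of 7 tested, 2 were higher and 0 lower at an unadjusted p under 0.05 (background 2.19% and 2.38%), and the median was 0.44. CAMK2N1, an inhibitor of calmodulin kinase, had 70.0, 109 and 315 CPM in KLK3-high libraries and 54.8, 24.9 and 160 CPM in KLK3-low libraries (1.15 ± 0.37, p = 0.0296; DESeq2 adjusted p = 0.0104). The other was UGT2B17, which stood at -0.24 when each cell was given equal weight. The mean score per cell of this list differed by 0.33, -0.013 and -0.061 in control batches 1, 2 and 3. In knockdown cells 0 of 8 were higher and 2 lower (background 3.23% and 3.2%), with a median of -0.34.

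**Figure D5:**
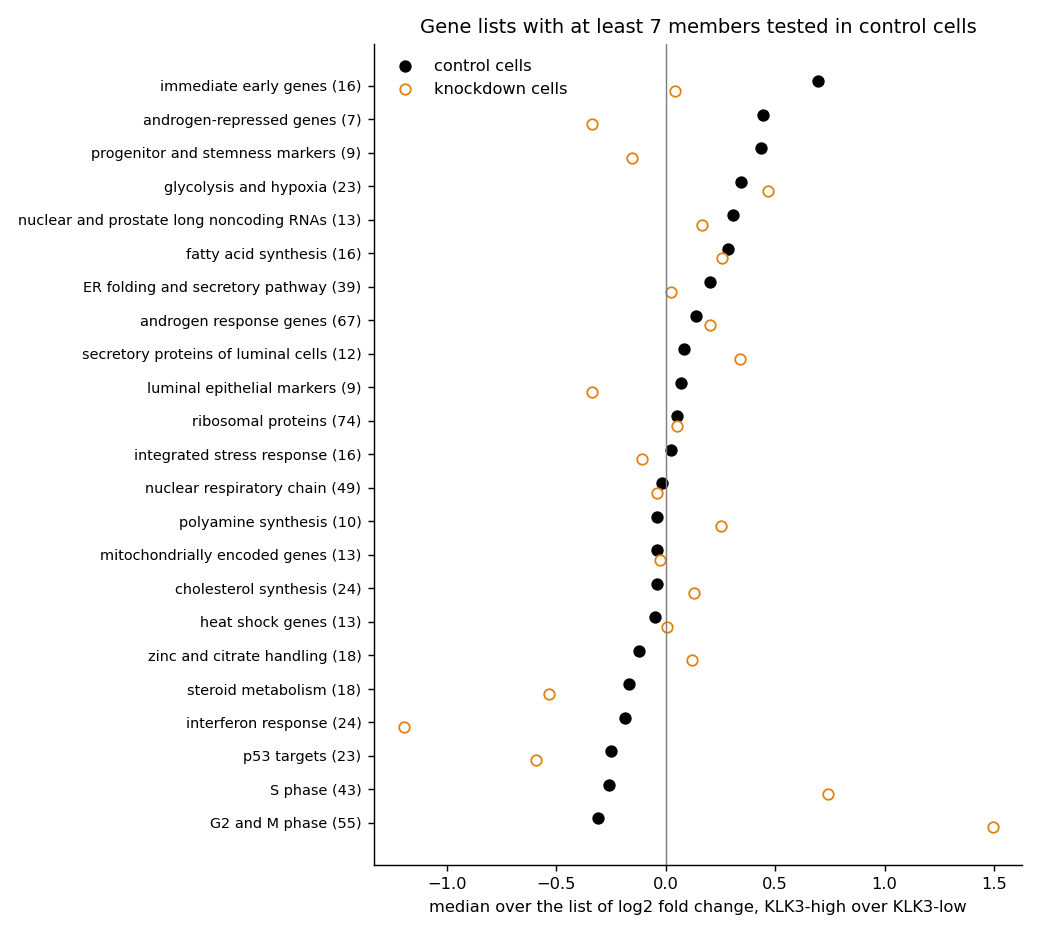
Median log2 fold change, KLK3-high over KLK3-low, of gene lists with at least 7 members tested in control cells (number tested in brackets), filled for control cells and open for knockdown cells. The G2 and M list stood at -0.31 in control cells and 1.49 in knockdown cells, and the glycolysis and hypoxia list at 0.34 and 0.47.

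Of the markers of other cell types, FN1 had the most reads. The neuroendocrine list summed to 43.0, 40.2 and 19.7 CPM in KLK3-high libraries and 13.6, 11.01 and 11.7 CPM in KLK3-low libraries, with most reads from ENO2. ENO2, a neuronal enolase and so also a glycolytic enzyme, had 36.4, 15.3 and 10.9 CPM in KLK3-high libraries and 2.86, 5.66 and 3.69 CPM in KLK3-low libraries (2.19 ± 0.62, p = 0.0190). Its log2 fold change was 1.499 without batch 1, and 0.91 with each cell given equal weight (limma p = 0.0492). SCG2 was at 0, and CHGA, SYP, INSM1, SCG3 and PCSK1 were under 1 CPM. The mesenchymal list summed to 249 to 292 CPM in KLK3-high libraries and 126 to 217 CPM in KLK3-low libraries, nearly all of it FN1, fibronectin, at 258, 226 and 279 CPM in KLK3-high libraries and 109, 123 and 198 CPM in KLK3-low libraries (0.87 ± 0.17, p = 0.00469). CDH2 and COL1A2 were at 0, and the blood and endothelial list reached 21.1 CPM in 1 library, through VWF, of whose reads 1 cell held 34.1%. The part of these markers in the results above was not tested.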

How the data were processed

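Gene read counts of single LNCaP cells were analysed as the authors deposited them, as whole-number counts per gene and cell with no molecular identifiers. Their tools were TopHat2 2.1.0, HTSeq 0.6.1, FastQC 0.11.3 and edgeR 3.2.2 with build GRCh38.p3, per the submitters' processing notes. For read length and strand setting, the sources used here state nothing. Columns were matched to samples by the column name given in each sample's description, and 4 columns that matched no label were not used. Arm and batch were taken from the sample titles. KLK3 CPM is KLK3 reads per 1000000 reads in genes. Counts were summed per class and batch, which gave 30021335 to 40086254 reads in KLK3-high and 32178036 to 34408735 reads in KLK3-low control libraries. KLK3 was left out of the fits. The test was edgeR 4.0.16 quasi-likelihood (R 4.3.3; TMM scaling, default filter on low counts, robust fit, batch as a block, Benjamini-Hochberg adjustment), with DESeq2 1.42.0 and limma 3.58.1 as alternatives; limma was chosen after seeing the data. The fit was tested on simulated counts. Batches pair the classes by their labels, and the deviations of same-batch libraries correlated at 0.107, 0.146 and 0.102. SE is the log2 fold change divided by the square root of F.

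The division by KLK3, the gene lists and the tests were chosen with earlier results of these data known. The rule for named genes took kallikreins, 12 genes in each direction as described, and fixed lists; 76 genes it names are not given singly (log2 -2.05 to 1.85), and 35 genes outside it were named after their values were seen. Some genes the rule names, and 1 list, are not reported here. Depth, genes detected, mitochondrial share and shares of cells were compared as 1 value per class and batch by exact permutation tests, two-sided. Alternatives changed the scaling, filter, depth, mitochondrial limit, division and batches.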

Additional observations from a re-analysis of the deposited data

Results flagged for a closer look

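Some genes stood on opposite sides of 0 in the arms: every control batch moved one way and every knockdown batch the other. The values below are the log2 fold change of KLK3-high over KLK3-low in control cells minus the same in knockdown cells, and none had an edgeR adjusted p under 0.05 in the interaction test.

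Cell cycle genes and KPNA2 made up the largest group, all lower in KLK3-high control cells and higher in KLK3-high knockdown cells. The differences were -1.747 for CDK1, -1.441 for CKS2, -1.732 for CCNB1, -2.115 for CCNB2, -1.817 for KIF23, -2.357 for HMMR, -1.989 for ECT2, -2.511 for BIRC5, -2.081 for CENPF, -4.362 for DTL and -1.479 for KPNA2. The mean G2 and M phase score per cell differed by -1.346 on log2(CPM + 1).

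SPDEF (-1.481), XRCC5 (-0.505), ENPP4 (-2.383), HSPA8 (-0.557), FOLH1 (-0.247) and BTG2 (-0.921) were also lower in control and higher in knockdown KLK3-high cells. ELK4 (0.880), HSPA5 (0.955), UGT2B17 (0.948) and FN1 (1.374) were higher in control and lower in knockdown KLK3-high cells, as was the mean score of the mesenchymal markers (0.2539), which FN1 leads. The score differences were not tested.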

How the results depend on the processing

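With edgeR, 0 genes had an adjusted p under 0.05 in control cells, also with no replicate block (0 genes), and in every set that left out 1 batch. DESeq2 placed 197 genes in control cells, 578 in knockdown cells and 341 in the interaction, and the interaction of cells thinned to 100000 reads placed 6. The cause was not tested. Of 96 named genes, 86 kept their direction under every alternative run. Many of these genes were named for a small p, for 1 direction in all batches or after their values were seen. The count is thus in large part set by that choice. Log2 fold changes turned for KLKP1 (0.009 with the outer tertiles), KLK15 (0.015 thinned and 0.066 with limma), STEAP2 (-0.012 thinned, -0.039 with a mitochondrial limit of 10% and -0.042 with limma), RRM2 (-0.300 with limma), UGT2B17 (-0.239 with limma), KRT18 (-0.003 with the outer tertiles) and CDH1 (-0.036 thinned, -0.141 with no mitochondrial limit, -0.018 at 10%, -0.022 without cells above the 75th percentile of G2 and M score and -0.020 with limma). Without those cells CCNB1, CCNB2 and CENPF gave 0.141, 0.154 and 0.364. Leaving out 1 batch gave KLKP1 -0.583 to 0.514, KLK15 -1.244 to 1.132, STEAP2 -0.041 to 0.090, RRM2 -0.142 to 0.436, KRT18 -0.058 to 0.158 and CDH1 -0.044 to 0.182, and the difference in median reads per cell -623.25 to 75020. Genes detected in the median cell differed by 227.33, and by 233.67 after thinning, with no mitochondrial limit, and the mitochondrial share by 0.046785 points with a limit of 10%.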

Other observations

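Genes listed as progenitor and stemness markers had 3 of 9 members higher and 0 lower in KLK3-high control cells at an unadjusted edgeR p under 0.05 (background 2.19% and 2.38%). Their median log2 fold change was 0.43. In knockdown cells 0 of 10 were higher and 0 lower (background 3.23% and 3.2%), with a median of -0.15. MYC, which this list shares with the immediate early genes, was 1 of the 3.

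Steroid metabolism genes had a median of -0.17 over 18 genes in control cells and -0.53 over 16 genes in knockdown cells. In knockdown cells 0 were higher and 3 lower at an unadjusted edgeR p under 0.05 (background 3.23% and 3.2%). CDH1, the epithelial cadherin, had 279, 248 and 243 CPM in knockdown KLK3-high libraries and 389, 336 and 348 CPM in knockdown KLK3-low libraries (log2 fold change -0.48 ± 0.09, edgeR adjusted p = 0.665), while in control cells it gave 0.07 ± 0.13.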
